A study of Apis mellifera with 12 samples.

Results

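ame-miR-3739 and the honey bee (Apis mellifera) microRNAs most like it in sequence, ame-miR-3776, ame-miR-3741 and ame-miR-3796, were followed across 12 fat body pools, as 4 of the 168 miRNA reporters on the array. They were chosen by mature sequence and by their measured differences between the groups of these pools, so each difference of a member is given as a description and no p is read for it. The groups were workers given double-stranded RNA that targets vitellogenin (dsRNA-Vg, 6 pools) and workers given one that targets green fluorescent protein (dsRNA-GFP, the sham injection, 6 pools). All bees were injected as newly emerged adults with 2 µL at 10 µg/µL and were 15-day-old workers when sampled, which the labels call foragers. Each pool joined small RNA of 5 bees, 400 ng from each. The tissue was the fat-body-lined abdominal carcass, which can also hold muscle, nerve and epidermis. No uninjected bees and no measure of vitellogenin mRNA were used here.

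A microRNA is cut as a short single strand from a hairpin transcript and pairs with target mRNAs mainly through its seed, bases 2 to 8 from the 5′ end. Members of a seed family share that stretch and so many of their targets. The fat body is the insect organ of nutrient storage and of vitellogenin synthesis, and vitellogenin is a yolk precursor that in honey bee workers also bears on foraging onset. No function is assigned to any of these 4 miRNAs here, and RefSeq (assembly Amel_HAv3.1) lists a gene of the same number for each.

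The target sequences that the scanner files give for the 4 reporters are shown first because their likeness defines the group. Capitals mark the seed.
miR-3739: uUGGGAGGgggagagagcagcu
miR-3776: aGGAGGGGgggagagagaagcg
miR-3741: aCGAGAGGgggagagagaagua
miR-3796: gAUCCUAAggggaggagaggauuu
The 4 seeds all differ, and 0 other reporters on the array carry any of them. The likeness of the first 3 lies mainly behind the seed. The same sequences of the first 3 miRNAs are shown again with their longest common run of 11 bases in capitals, which covers bases 7 to 17 in each.
miR-3739: uugggaGGGGGAGAGAGcagcu
miR-3776: aggaggGGGGGAGAGAGaagcg
miR-3741: acgagaGGGGGAGAGAGaagua
Of the 168 reporters, these 3 alone hold the run GGGGGAGAGAG, read on the miRNA strand. Whether one of these RNAs also binds the probe of another was not tested.

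Without gaps, miR-3776 and miR-3741 were the most alike pair, with 18 matching bases and a common run of 14 bases. miR-3739 matched each of them at 16 bases, and 4 of its first 8 bases matched miR-3776 while 5 of them matched miR-3741. Of the 14 later bases, 12 and 11 matched. miR-3796 is the most distant relative, with 13 bases matching miR-3739 and miR-3741 and 11 matching miR-3776. The longest runs held by all 4 had 6 bases. One of them is GGAGAG, which 5 of the 168 reporters contain. Among the 164 reporters outside the group the best match to miR-3739 was 12 bases, reached by 3 of them, and the median over all other reporters was 8. miR-3792, singled out after its match was seen, matched miR-3776 at 13 bases, more than miR-3796 did.

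All 4 sequences are rich in purines (A and G). miR-3776 had the highest purine share of all 168 reporters, 95.5%, and miR-3741 followed with 90.9%. miR-3739 had 77.3% and miR-3796 70.8%, where the median reporter had 48.9%. G alone made up 63.6% of miR-3776, 54.5% of miR-3739, 50% of miR-3741 and 41.7% of miR-3796, against a median of 22.7%. In the RefSeq table none of the 4 genes is listed next to another of them. Mir3776, Mir3741 and Mir3796 each fall within the span of a protein-coding gene (LOC412878, LOC725329 and LOC724468), while Mir3739 overlaps no other gene and lies between LOC102656661 and LOC102656209. Coordinates are left out because the scanner files do not name a build.

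Each pool was hybridised to 1 array with 1 dye, and each reporter had 18 spots per array. Levels are log2 scanner intensities after background correction (normexp, offset 50) and quantile normalization, and a second scale is the intensity in the authors' deposited table, whose correction and normalization no source used here gives. The empty spots had median intensities between 150.2 and 491.3 over the 12 arrays, and 37 to 168 reporters per array were detected, that is, had at least 50% of their spots above the 95th percentile of the empty spots. Of all reporters, 127 were detected on at least 6 arrays and were fitted, the 4 relatives among them. The labels do not tie pools to colonies or days, and precision is limited by having 6 arrays per group.

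miR-3739 stood clear of the empty spots on nearly every array. Its scanner intensity had a median over spots of 1218 to 3443 on the dsRNA-Vg arrays and of 291.6 to 1503 on the dsRNA-GFP arrays. All 108 of its spots on dsRNA-Vg arrays and 106 of its 108 spots on dsRNA-GFP arrays exceeded the 95th percentile of the empty spots, so it was detected on all 12 arrays. Set against the dimmer miRNA reporters, it was detected on 6 dsRNA-Vg and 5 dsRNA-GFP arrays, the exception being dsRNA-GFP pool 3.

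Its log2 level had a lowest, median and highest value of 9.94, 10.84 and 11.43 in dsRNA-Vg pools, against 7.21, 8.15 and 9.34 in dsRNA-GFP pools. On this quantile normalized scale the groups did not overlap, and 0.60 separated the nearest pools. Of the 127 fitted reporters, 1.57% had groups that did not overlap in this direction. The scanner intensities before normalization did overlap. Over the empty spots, the median was 1099 in dsRNA-GFP pool 2 and 861.1 in dsRNA-Vg pool 6. The mean was 10.80 ± 0.59 in dsRNA-Vg pools and 8.29 ± 0.78 in dsRNA-GFP pools (SD, n = 6 each), a log2 difference of 2.51 (SE 0.37) or 5.71-fold. This difference was 1.92 without background correction and 3.14 with a fitted surface of the empty spots subtracted. In the authors' deposited table miR-3739 had an intensity of 1538, 2708 and 4165 (lowest, median and highest) in dsRNA-Vg pools, against 70, 241.5 and 817 in dsRNA-GFP pools. The dsRNA-Vg pools spanned 2.71-fold there and the dsRNA-GFP pools 11.7-fold.

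miR-3776 stood close to the empty spots in dsRNA-GFP pools. Its median scanner intensity exceeded that of the empty spots by 41.8 to 498.4 on dsRNA-Vg arrays, and by 23.0 to 221.6 on dsRNA-GFP arrays. It was detected on 6 dsRNA-Vg and 4 dsRNA-GFP arrays. On those 4 dsRNA-GFP arrays 139 to 168 of the 168 reporters were detected, against 37 and 47 on those of pools 4 and 5. The 6 dsRNA-Vg arrays had 44 to 163 reporters detected. Set against the dimmer miRNA reporters, miR-3776 was detected on 6 dsRNA-Vg and 2 dsRNA-GFP arrays. Its log2 level had a lowest, median and highest value of 7.52, 8.37 and 8.97 in dsRNA-Vg pools, against 6.87, 7.06 and 7.50 in dsRNA-GFP pools. In intensity over the empty spots, dsRNA-GFP pool 2 (221.6) exceeded dsRNA-Vg pool 6 (41.8). Again the quantile normalized levels of the groups did not overlap, but the nearest pools were 0.02 apart. Their standard errors over spots were 0.0594 (dsRNA-Vg pool 6) and 0.0272 (dsRNA-GFP pool 2), so which of them was higher is not resolved.

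The mean level of miR-3776 was 8.36 ± 0.51 in dsRNA-Vg pools and 7.14 ± 0.27 in dsRNA-GFP pools (SD, n = 6 each), a log2 difference of 1.22 (SE 0.22) or 2.34-fold. The deposited intensity was 131, 289.5 and 713 (lowest, median and highest) in dsRNA-Vg pools, against 25, 55 and 115 in dsRNA-GFP pools. The size of this difference depended on how background was treated: it was 0.67 without background correction and 2.56 with a fitted surface of the empty spots subtracted. dsRNA-Vg pool 6 was lowest of its group, and without it the difference was 1.39.

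miR-3741, the relative with the longest run in common with each of the other 2, lay near the background in both groups. Its median scanner intensity minus that of the empty spots ran from -21.1 to 51.0 on dsRNA-Vg arrays and from -6.12 to 89.5 on dsRNA-GFP arrays. It was detected on 4 dsRNA-Vg and 3 dsRNA-GFP arrays. Of the 168 reporters, 68 to 163 were detected on those dsRNA-Vg arrays and 143 to 168 on those dsRNA-GFP arrays. Set against the dimmer miRNA reporters instead of the empty spots, miR-3741 was detected on 1 dsRNA-Vg array, that of pool 4, and on 0 dsRNA-GFP arrays.

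The log2 level of miR-3741 had a lowest, median and highest value of 6.79, 7.04 and 7.36 in dsRNA-Vg pools, against 6.84, 6.90 and 7.12 in dsRNA-GFP pools, and the groups overlapped. The mean was 7.03 ± 0.21 in dsRNA-Vg pools and 6.94 ± 0.12 in dsRNA-GFP pools (SD, n = 6 each), a difference of 0.08 (SE 0.09). Without normalization between arrays the difference was -0.15, while the median of all reporters lay at -0.22 in that setting. Without dsRNA-Vg pool 4, the highest, it was 0.02. The deposited intensity ran from 17 to 93 in dsRNA-Vg pools and from 15 to 46 in dsRNA-GFP pools. At this signal over background the values do not show that miR-3741 was equal between the groups.

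miR-3796, the most distant relative, had a median level of 7.32 in dsRNA-Vg pools (lowest 7.18, highest 7.72), against 7.04 in dsRNA-GFP pools (lowest 6.95, highest 7.27). In 4 dsRNA-Vg pools the level exceeded that of each dsRNA-GFP pool, and the groups overlapped. The mean was 7.41 ± 0.22 in dsRNA-Vg pools and 7.08 ± 0.12 in dsRNA-GFP pools (SD, n = 6 each), a difference of 0.33 (SE 0.10). It was 0.14 without background correction, 0.09 without normalization between arrays, 0.95 with the fitted surface subtracted and 0.05 with the control reporter PUC2PM as a covariate. In the authors' deposited table its intensity ran from 52 to 161 in dsRNA-Vg pools and from 30 to 56 in dsRNA-GFP pools, a log2 difference of 1.07 (SE 0.28). It was detected on 5 dsRNA-Vg and 4 dsRNA-GFP arrays, and on 4 and 1 of them when set against the dimmer miRNA reporters. Of the 168 reporters, 58 to 163 were detected against the empty spots on those 5 dsRNA-Vg arrays and 139 to 168 on those 4 dsRNA-GFP arrays.

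**Figure D1:**
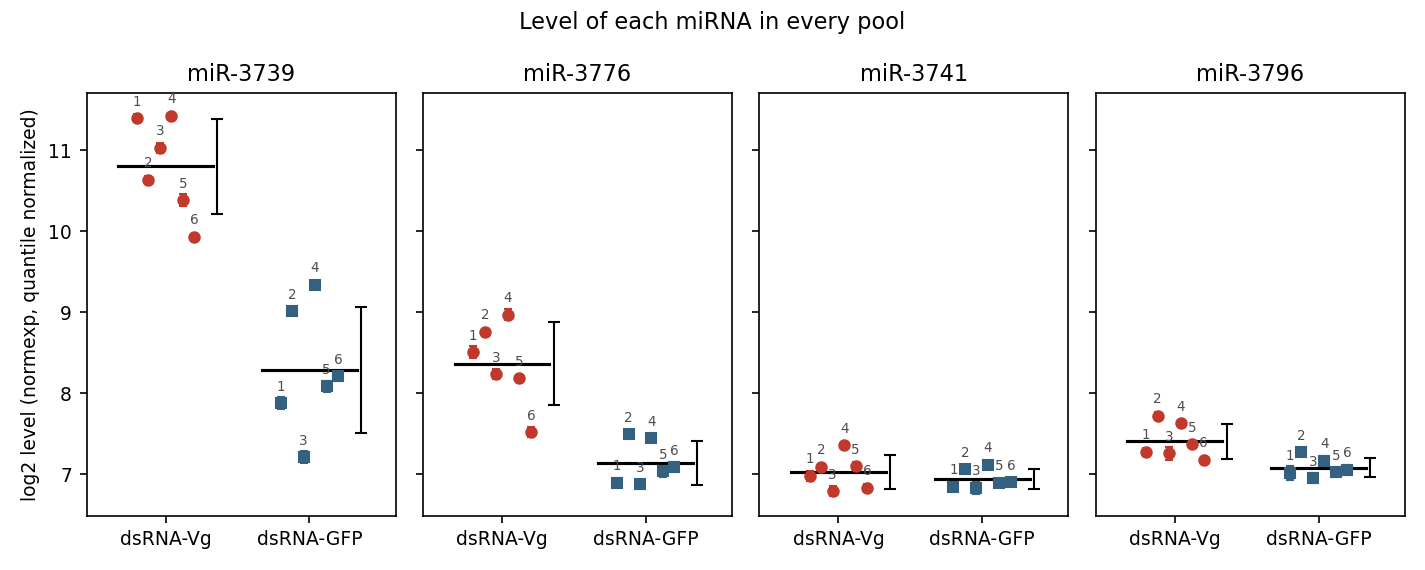
Log2 level (vertical axis, after normexp and quantile normalization) of each miRNA in the 6 dsRNA-Vg pools (circles, left) and the 6 dsRNA-GFP pools (squares, right). Numbers name the pools, bars on points are standard errors over 18 spots (often smaller than the point), black lines are group means and the bars beside them 1 SD over pools. On this scale the groups are apart for miR-3739, nearly touch for miR-3776 and overlap for miR-3741 and miR-3796.

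Over the whole table, limma with Benjamini-Hochberg adjustment called 2 of 127 reporters higher in dsRNA-Vg pools, or 1.57%, and 0 lower. These 2 were miR-3739 and miR-3776 themselves. The choice of members used this contrast, so nothing is read from the count. In quantile normalized levels the groups did not overlap in the higher direction for the same 2 reporters, again 1.57%. In the lower direction this held for 1 reporter, miR-13a (named after its values were seen), or 0.787%. The reporter next after miR-3776 by p, outside the group, was miR-3788, with a log2 difference of 0.18 (SE 0.05) and an adjusted p of 0.145 by limma. Of the 123 fitted reporters outside the group, 120 had a log2 difference within 0.5 of 0, with a median of -0.01, a lowest value of -1.89 and a highest of 0.47.

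Beside their likeness to miR-3739, the relatives had these log2 differences, as a description of members chosen with them known. miR-3776 and miR-3741 match miR-3739 at 16 bases and had 1.22 and 0.08, the value of miR-3741 being one near background. miR-3796, with 13 matching bases, had 0.33. The 3 fitted reporters with 12 matching bases ranged from -0.14 to 0.47 with a median of 0.13, and the 4 with 11 matching bases from -0.21 to 0.19. The 9 fitted reporters outside the group that were at least as purine-rich as miR-3796 had differences from -0.44 to 0.04 with a median of -0.08, against a median of -0.01 over all 127. Of these 9, 4 were detected on only 6 arrays and 1 on 7, and whether purine content bears on the difference was not tested.

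**Figure D2:**
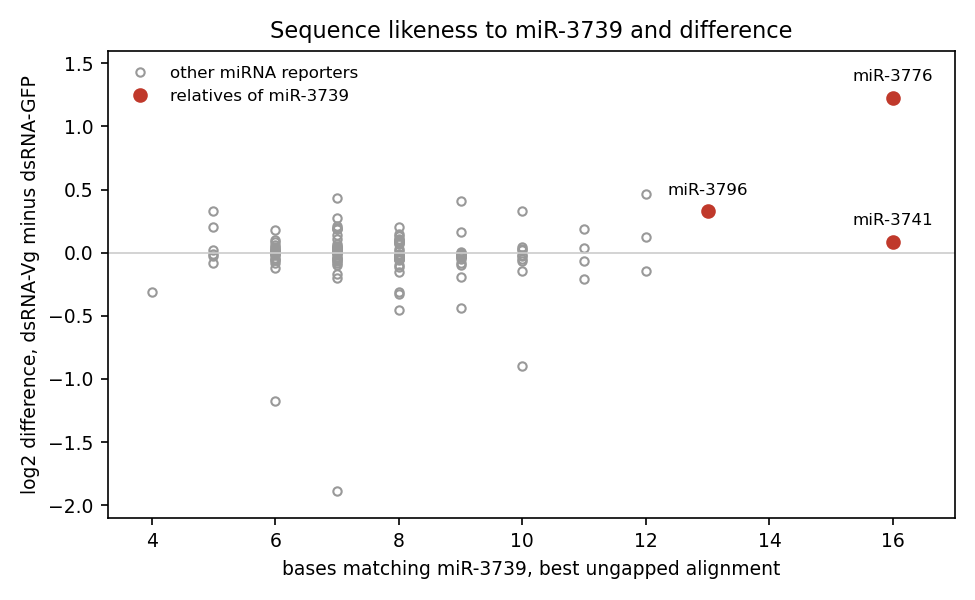
Log2 difference, dsRNA-Vg minus dsRNA-GFP (vertical axis), of the fitted reporters other than miR-3739 against the number of their bases that match miR-3739 in the best ungapped alignment (horizontal axis). Filled points are the 3 relatives: miR-3776 at 1.22, miR-3796 at 0.33 and miR-3741 at 0.08, and open points are the 123 reporters outside the group.

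The spread of miR-3739 over pools was set beside the standard error over the spots of 1 array, which holds spot noise only and no error between arrays. The SD over pools was 0.59 in dsRNA-Vg pools and 0.78 in dsRNA-GFP pools, against a standard error over spots (root mean square over arrays) of 0.053 and 0.062, so the ratio was 11.2 and 12.5. For miR-3776 the ratio was 8.89 in dsRNA-Vg pools and 4.86 in dsRNA-GFP pools. For miR-3741 it was 4.26 and 2.33, and for miR-3796 it was 4.64 and 1.88, so the order of single dsRNA-GFP pools is little resolved for these dim reporters. Of the 5 neighbouring pairs in the order of dsRNA-GFP pools, 4 were more than 2 standard errors apart for miR-3739, 1 each for miR-3776 and miR-3741, and 0 for miR-3796.

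Within the dsRNA-GFP group the quantile normalized levels of the 4 relatives had nearly the same order of pools, an order that depended on the normalization. For all 4, pools 3, 1, 5 and 6 were the lowest, in that order, and pools 2 and 4 the highest. In pool 4 the log2 level was 9.34 for miR-3739, 7.44 for miR-3776, 7.12 for miR-3741 and 7.17 for miR-3796. In pool 3 it was 7.21, 6.87, 6.84 and 6.95 for the same miRNAs. On the array of pool 4, however, miR-3739 alone of the 4 was detected against the empty spots: 8 of the 18 spots of miR-3776, 0 of miR-3741 and 1 of miR-3796 passed, with median intensities that differed from that of the empty spots by 23.0, -6.12 and -3.34. Without normalization between arrays pool 2 was the highest for all 4. Pool 4 was next to it for miR-3739 and had only 2 pools below it for the other 3. In the authors' deposited table too, pools 2 and 4 had the highest intensity of each of the 4, with 673 and 817 for miR-3739 against at most 288 in the other 4 pools, and with 106 and 115 for miR-3776 against at most 66.

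Across the 6 dsRNA-GFP pools, Pearson's r of the 6 pairs of relatives ran from 0.89 to 0.97, and Spearman's rho from 0.94 to 1. The pairs share arrays and RNA pools, and 3 of the miRNAs share a run of bases. By two-sided exact permutation tests, adjusted over the 12 relations computed (6 pairs in each group), 5 of the 6 pairs passed 0.05 by Pearson's r (adjusted p from 0.0167 to 0.0857) and 6 of 6 by Spearman's rho (adjusted p from 0.0167 to 0.0333). The smallest p that 6 pools allow is 0.00278. miR-3739 had an r of 0.95 with miR-3776 (rho 0.94, exact p = 0.0111 and 0.0167, adjusted p = 0.0417 and 0.0333), 0.96 with miR-3741 (rho 1, exact p = 0.00278 for each, adjusted p = 0.0167) and 0.90 with miR-3796 (rho 0.94, exact p = 0.0194 and 0.0167, adjusted p = 0.0467 and 0.0333). Without the 2 pools farthest from the median, the 6 values were 0.81 to 1.00 over 4 pools. Pools 2 and 4 stand apart from the other 4, and without them r was 0.81 to 1.00 as well, also over 4 pools.

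As a background for these values, 2.12% of the 8001 pairs that can be made from the 127 fitted reporters had an r of at least 0.89 in the dsRNA-GFP pools, and the median over all pairs was 0.01. The r between dim reporters depends on the scaling of the arrays. Without normalization between arrays the median over all pairs was 0.82 and 59.9% of all pairs reached the lowest r of the relatives, 0.66. With cyclic loess the r of the 6 pairs in dsRNA-GFP pools ran from 0.26 to 0.88 and 0 passed. In the authors' deposited table they ran from 0.82 to 0.97, with adjusted p between 0.05 and 0.075, and 0 passed. The relation in dsRNA-GFP pools thus had a positive r for all 6 pairs in each of the 8 settings, while its call held in part of them. By Pearson's r, 5 pairs passed in the setting used here, 3 without normalization, 3 when arrays were scaled by their median, 1 with the median of the spots and 0 in the others. By Spearman's rho the counts in the same order were 6, 3, 4 and 1, and again 0 in the others.

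Within the dsRNA-Vg group the relatives followed each other less closely in this setting, and 0 of 6 pairs passed. miR-3739 had an r of 0.78 with miR-3776 (rho 0.83, exact p = 0.0583 for each, adjusted p = 0.0875 and 0.1), 0.41 with miR-3741 (rho 0.31, exact p = 0.408 and 0.564, adjusted p = 0.445 and 0.564) and 0.29 with miR-3796 (rho 0.37, exact p = 0.564 and 0.497, adjusted p = 0.564 and 0.542). Of all pairs of reporters, 29.8% had an r of at least 0.29 in these pools. Among miR-3776, miR-3741 and miR-3796 r was 0.76 to 0.81 (exact p from 0.0333 to 0.0806, adjusted p from 0.0667 to 0.0967) and rho 0.54 to 0.77 (exact p from 0.103 to 0.297, adjusted p from 0.137 to 0.357). dsRNA-Vg pool 4 was the highest of the group for miR-3739 (11.43), miR-3776 (8.97) and miR-3741 (7.36). dsRNA-Vg pool 6 was the lowest for miR-3739 (9.94), miR-3776 (7.52) and miR-3796 (7.18). Without these 2 pools the r of miR-3739 with miR-3776 was 0.15, with miR-3741 -0.60 and with miR-3796 -0.52 over 4 pools, so those positive values rest on pools 4 and 6.

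With each array scaled to its median the picture in dsRNA-Vg pools was another: r was 0.88 to 0.97 and 6 of 6 pairs passed (exact permutation, adjusted p from 0.0167 to 0.0296). By Spearman's rho 5 of 6 passed. In that setting 3.62% of all pairs of reporters had an r of at least 0.88. In the authors' deposited table the 6 values were 0.38 to 0.93, and 0 passed (adjusted p from 0.0533 to 0.444). Whether the relation differs between the groups was not tested.

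**Figure D3:**
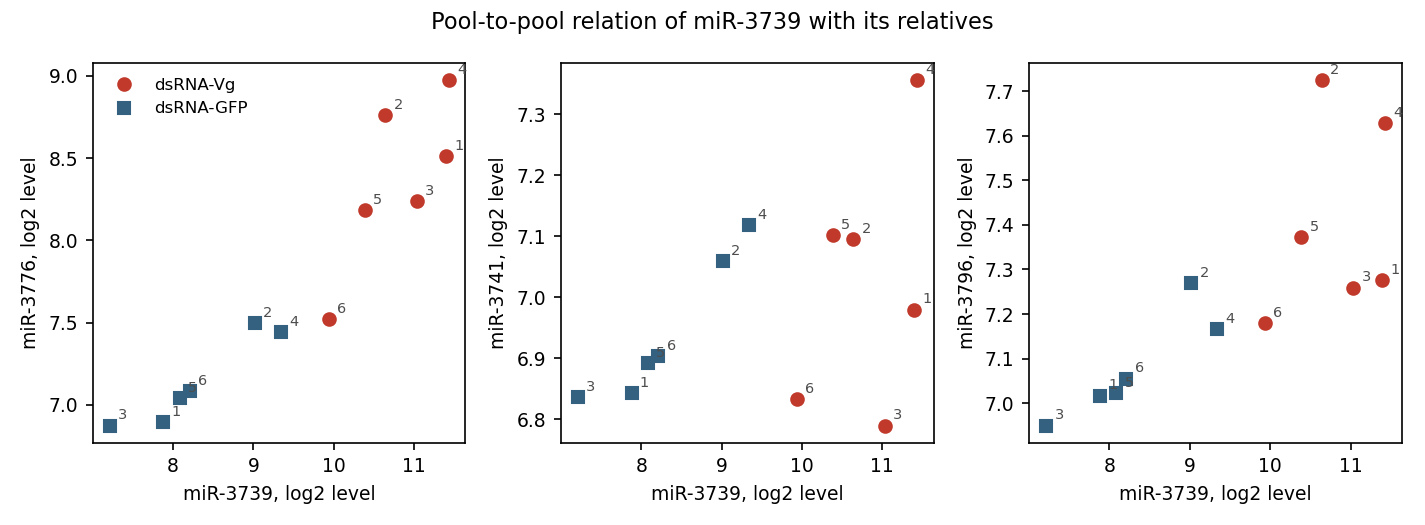
Log2 level of miR-3776, miR-3741 and miR-3796 (vertical axes) against that of miR-3739 (horizontal axes) in the dsRNA-Vg pools (circles) and the dsRNA-GFP pools (squares), with pool numbers. The dsRNA-GFP pools lie near a line in each panel, and the dsRNA-Vg pools scatter more widely for miR-3741 and miR-3796.

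**Figure D4:**
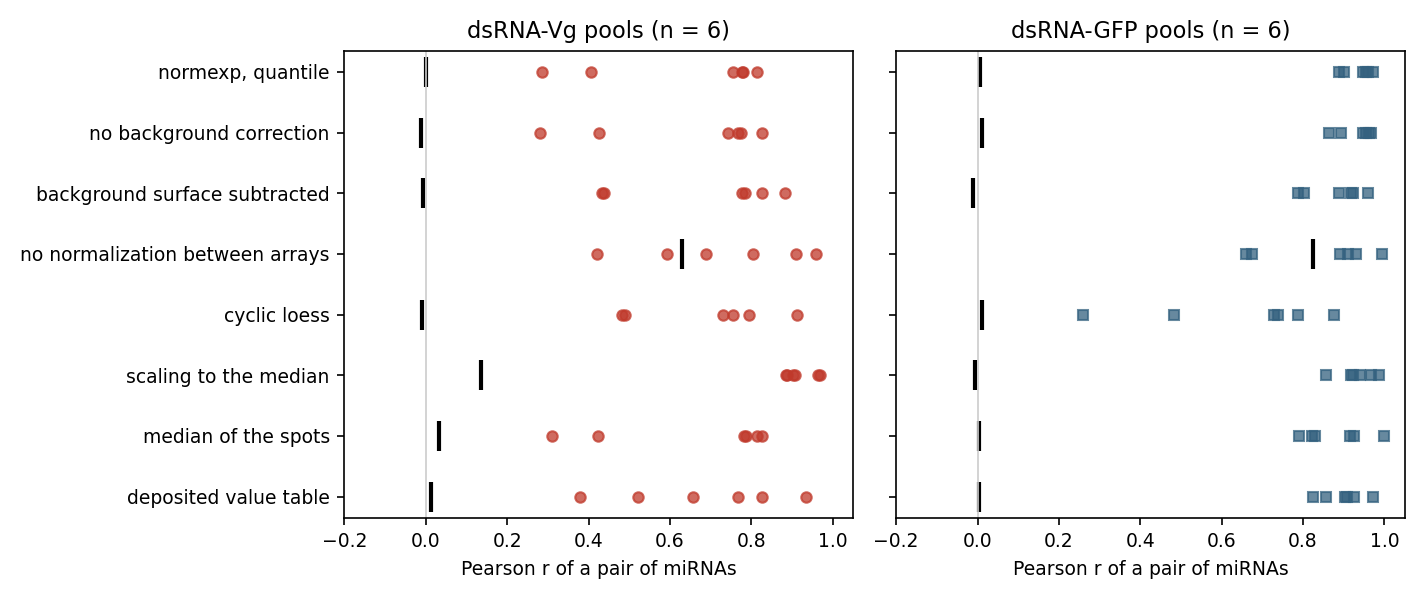
Pearson's r (horizontal axis) of the 6 pairs of relatives over the 6 dsRNA-Vg pools (circles, left) and the 6 dsRNA-GFP pools (squares, right) in 8 settings of background correction and normalization, with a black tick at the median over all pairs of the 127 fitted reporters. All values are positive, and the setting moves them between 0.26 and 1.00.

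The pattern most like that of miR-3739 was sought over all 12 pools after subtracting each group's mean, among the other 126 fitted reporters. miR-3776 had rank 1 with an r of 0.77, miR-3741 rank 3 with 0.59 and miR-3796 rank 9 with 0.49, as a description over pools that share arrays and the quantile scale. The 5 reporters outside the group with the highest r were miR-14 (0.64), a regulator of fat metabolism and cell death in Drosophila, miR-9a (0.56), which acts in sensory organ development in Drosophila, miR-2788 (0.53), miR-3791 (0.52) and miR-7 (0.51), which acts in Drosophila photoreceptor development. These 5 had log2 differences between the groups of -0.31, -0.06, 0.02, 0.08 and -0.10, all far smaller in size than that of miR-3739. All 5 were dim, with group means between 6.83 and 7.19 and detection on 6 to 9 of the 12 arrays. The SD of miR-2788 over pools was only 0.06 in dsRNA-Vg pools and 0.03 in dsRNA-GFP pools. In the authors' deposited table r was 0.77 for miR-3776, 0.60 for miR-3741 and 0.53 for miR-3796. There miR-9a had 0.62 and miR-3791 0.55, both above miR-3796, while miR-2788 had 0.47, miR-14 0.19 and miR-7 0.18.

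At the other end, miR-3771 had an r of -0.95 with miR-3739 and miR-3758 one of -0.76. The levels of miR-3771 moved little, between 6.88 and 7.07 over all pools. Without normalization between arrays the values were 0.12 for miR-3771 and 0.08 for miR-3758, so the sign turned with that choice. They were -0.67 and -0.77 in the authors' deposited table, and with the surface subtracted -0.74 and -0.78.

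**Figure D5:**
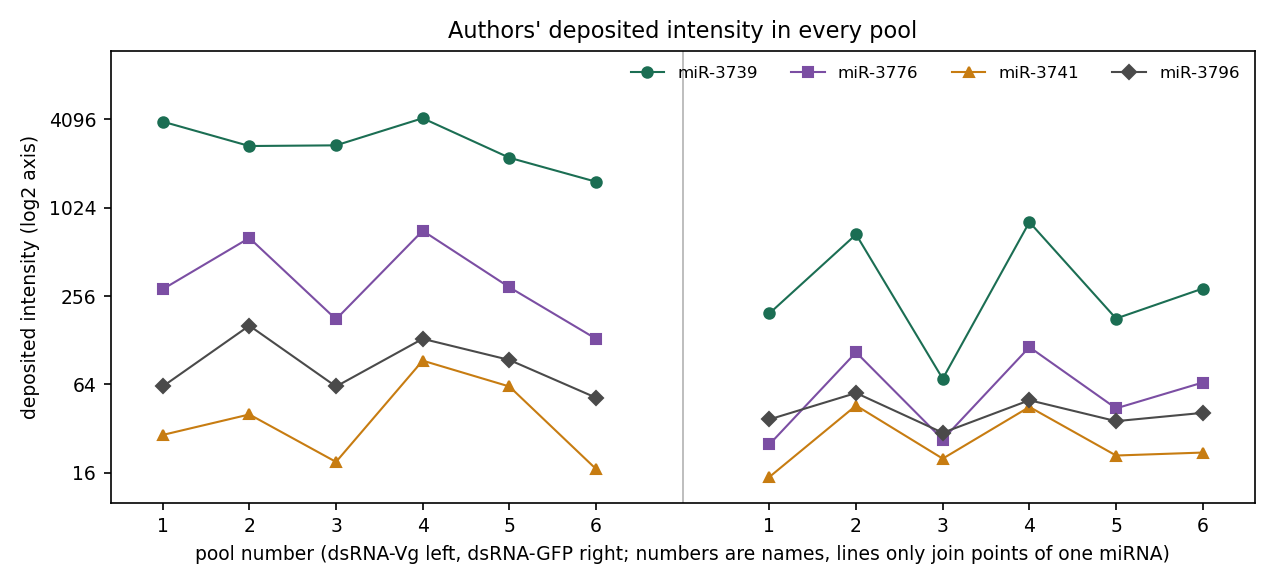
Intensity in the authors' deposited table (vertical axis, log2 scaled) of the 4 miRNAs in every pool, dsRNA-Vg pools left and dsRNA-GFP pools right; lines only join the points of 1 miRNA. miR-3739 lies between 1538 and 4165 in dsRNA-Vg pools and between 70 and 817 in dsRNA-GFP pools, and pools 2 and 4 are the highest dsRNA-GFP pools for all 4.

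A calibration reporter also read higher on the dsRNA-Vg arrays. PUC2PM, which the scanner files call a calibration spike without giving its amount, read 11.18 ± 0.74 on dsRNA-Vg arrays and 9.77 ± 0.62 on dsRNA-GFP arrays (log2, before normalization between arrays, SD, n = 6 each), a difference of 1.41. Among dsRNA-GFP arrays it was highest on those of pools 2 and 4, at 10.78 and 9.98, the 2 pools that were also highest in the quantile normalized and deposited levels of the relatives. In dsRNA-GFP pools its r was 0.75 with miR-3739, 0.89 with miR-3776, 0.77 with miR-3741 and 0.89 with miR-3796 (exact permutation p = 0.0917, 0.00833, 0.0778 and 0.0167). Spearman's rho was 0.89, 0.94, 0.89 and 0.94 (exact permutation p = 0.0333, 0.0167, 0.0333 and 0.0167). Adjusted over the 16 relations with array measures, 0 passed, with adjusted p from 0.133 to 0.274 for these r. Without the 2 pools farthest from the median of each miRNA, r with PUC2PM was 0.95, 0.93, 0.94 and 0.55 over 4 pools. With cyclic loess r was 0.05 for miR-3776, and without normalization between arrays it was 0.25 for miR-3741 and 0.33 for miR-3796.

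In dsRNA-Vg pools the r with PUC2PM was 0.02 for miR-3739, 0.48 for miR-3776, 0.26 for miR-3741 and 0.73 for miR-3796 (exact permutation p = 0.994, 0.322, 0.614 and 0.103, adjusted p from 0.274 to 0.994), and rho ran from 0.09 to 0.54. Without the 2 farthest pools the 4 values were -0.61, 0.31, 0.71 and 0.40. dsRNA-Vg pool 1 had the lowest PUC2PM of its group, 10.26, and the second highest miR-3739, 11.40. With PUC2PM as a covariate, a choice made after its difference was seen, the log2 difference was 1.95 (SE 0.58) for miR-3739, 0.73 (SE 0.30) for miR-3776, -0.06 (SE 0.14) for miR-3741 and 0.05 (SE 0.10) for miR-3796. The related spike PUC2PM-20B read 14.79 ± 0.76 on dsRNA-Vg arrays and 14.91 ± 0.77 on dsRNA-GFP arrays (SD, n = 6 each) (a difference of -0.12), while a-PUC2PM read 12.15 ± 0.58 and 10.78 ± 0.58 (a difference of 1.37). The part of PUC2PM in the results on the relatives was not tested beyond that fit.

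The median log2 signal of an array had r of 0.17 for miR-3739, -0.44 for miR-3776, -0.58 for miR-3741 and -0.85 for miR-3796 in dsRNA-Vg pools (exact permutation p = 0.764, 0.397, 0.203 and 0.0306). In dsRNA-GFP pools the 4 values were -0.08, -0.11, -0.23 and 0.17 (exact permutation p = 0.833, 0.814, 0.636 and 0.722), and 0 passed after adjustment in either group. Spearman's rho with this signal ran from -0.83 to -0.09 in dsRNA-Vg pools and from -0.31 to -0.09 in dsRNA-GFP pools. Without the 2 farthest pools r ran from -0.61 to 0.82 in dsRNA-Vg pools and from -0.30 to 0.32 in dsRNA-GFP pools.

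Markers of other tissues in the carcass were set beside miR-3739. In these bulk pools fewer cells of a type and less RNA per cell cannot be told apart. The 2 muscle miRNAs, miR-1 and miR-133, had a summed linear level of 1510 to 2527 in dsRNA-Vg pools and of 1107 to 3164 in dsRNA-GFP pools. Their r with miR-3739 over the 12 pools, after subtracting group means, was 0.36 and 0.16. The 3 midgut miRNAs, miR-281, miR-750 and miR-1175, summed to between 465.1 and 4530 in dsRNA-Vg pools and between 516.1 and 6311 in dsRNA-GFP pools, with r of -0.31 to -0.20. All 3 had lower means in dsRNA-Vg pools, with log2 differences of -1.89 for miR-750, -1.17 for miR-1175 and -0.46 for miR-281, and that of miR-750 was the lowest of all fitted reporters. Their part in the differences of the relatives was not tested. Of the 6 nervous system miRNAs on the array 4 were fitted, with r of -0.07 to 0.51. The 6 summed to between 756.5 and 911.9 in dsRNA-Vg pools and between 780.4 and 812.0 in dsRNA-GFP pools. Each of the 6 was detected on 5 to 10 of the 12 arrays, and the log2 level of miR-7 ran from 6.91 to 7.36. Their sums thus lie near background and do not measure nerve content. Of these 11 markers, 9 were fitted and 0 were called. No miRNA that defines fat body was fixed, so the labelled tissue was not checked by a marker of its own.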

How the data were processed

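Small RNA from 12 fat body pools was tailed with poly(A), tagged, stained with Cy3 and hybridised by LC Sciences, per the labels' protocols. The authors deposited 1 scanner file per array, with the median intensity of each of 3968 spots and no local background per the file headers, and a table of 1 intensity per miRNA and pool whose processing no source used here gives. Scanner values were corrected with normexp (offset 50, fitted on all spots), control spots were left out, log2 values were quantile normalized and the 18 spots of a reporter averaged (limma 3.58.1, R 4.3.3). The 127 reporters detected on at least 6 arrays were fitted with limma (group only). The same fit was also run on simulated data with known shifts and independent noise, without background or normalization. The 2 sources ranked the reporters of an array with a Spearman correlation of 0.896 to 0.983. Relations used two-sided exact permutations (SciPy 1.17.1). p-values measure the spread between pools. The members and lists were chosen with earlier results of these data known. Named beside the members are the 5 reporters most and the 2 least like miR-3739 in pattern, the next by p, PUC2PM variants and tissue markers. Same-numbered pools had correlations of deviations of -0.33 to 0.70, which do not settle whether the numbers pair them. The main fit treated them as unpaired.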

Additional observations from a re-analysis of the deposited data

How the results depend on the processing

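Over 12 fits that each left out 1 pool, the log2 difference ran from 2.30 to 2.72 for miR-3739, 1.10 to 1.39 for miR-3776, 0.02 to 0.13 for miR-3741 and 0.26 to 0.37 for miR-3796, and 2 to 3 reporters were called. The difference moved by more than the SD over pools to 3.34, 2.53, 0.49 and 1.07 (miR-3739, miR-3776, miR-3741, miR-3796) in the deposited table; to 2.56, 0.30 and 0.95 (miR-3776, miR-3741, miR-3796) with a background surface subtracted; to 0.67 and 0.14 (miR-3776, miR-3796) without background correction; to -0.15 and 0.0887 (miR-3741, miR-3796) without normalization between arrays, where the median of all reporters was -0.22; and to 0.73 and 0.050 (miR-3776, miR-3796) with PUC2PM as a covariate. The count of called reporters was 1 without normalization between arrays, 1 with scaling to the median and 1 over the 35 reporters detected on all arrays, which leave out 3 of the 4 relatives. With the pool number as a replicate block, 3 of the 127 fitted reporters were called in place of 2, the added one being miR-3796. Nothing is read from this count either, since the choice of members used this contrast. The differences of the relatives were the same with an SE of 0.33 for miR-3739 (2.51), 0.15 for miR-3776, 0.05 for miR-3741 and 0.05 for miR-3796. Whether the numbers pair the pools is not known. Of the dsRNA-Vg pools, 3 of 6 correlated best with their own number. No scan or slide block was run, as the files give none.

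Pairs of relatives past the threshold by Pearson's r in dsRNA-Vg pools were 2 without normalization between arrays and 6 with scaling to the median, against 0. In dsRNA-GFP pools they were 0 without background correction, with the surface, with cyclic loess and in the deposited table, 3 without normalization, 3 with scaling to the median and 1 with the median of the spots, against 5. The cause was not tested. Of the settings with 0, cyclic loess had a lowest adjusted p (exact permutation) of 0.156. In the others the lowest was 0.05, at the threshold itself. Without background correction r in dsRNA-GFP pools was 0.86 to 0.97. Without 1 pool, a choice made after seeing the data, r was 0.86 to 1.00 in dsRNA-GFP pools and -0.13 to 0.95 in dsRNA-Vg pools. With array measures, 1 relation passed in dsRNA-GFP pools with the surface (miR-3796 and PUC2PM), with scaling to the median (miR-3776 and PUC2PM) and in the deposited table (miR-3741 and PUC2PM), against 0. Uncalled signs also turned. For the array median, r without normalization was -0.13 (miR-3739), 0.62 (miR-3741) and 0.41 (miR-3796) in dsRNA-Vg pools, and 0.34 (miR-3739), 0.70 (miR-3776) and 0.93 (miR-3741) in dsRNA-GFP pools. With cyclic loess it was -0.0245 (miR-3739) in dsRNA-Vg pools, and 0.37 (miR-3739) and 0.19 (miR-3776) in dsRNA-GFP pools. With scaling to the median it was -0.52 (miR-3739, dsRNA-Vg), in the deposited values 0.0573 (miR-3739, dsRNA-GFP), with the median of the spots 0.0549 (miR-3776, dsRNA-GFP) and with the surface -0.00362 (miR-3796, dsRNA-GFP). For PUC2PM without normalization it was -0.00955 (miR-3739), -0.75 (miR-3741) and -0.51 (miR-3796) in dsRNA-Vg pools.

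Detection against the dimmer miRNA reporters gave 2 arrays for miR-3776 (dsRNA-GFP), 1 (dsRNA-Vg) and 0 (dsRNA-GFP) for miR-3741, and 1 for miR-3796 (dsRNA-GFP). In 16 groups of 6 values checked, 0 pools stood far from the others, where chance gives about 0.8. Signal over background limits what can be said of miR-3741 and miR-3796.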
